A study of Rattus norvegicus with 18 samples.

Results

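Matricellular proteins are secreted into the extracellular matrix, where most of them act on cells through integrins and other surface receptors more than as load-bearing fibres. In the heart they are known for being scarce in healthy adult muscle and abundant after infarction or pressure overload, made mainly by activated fibroblasts and, for osteopontin, also by macrophages. They bind growth factors, collagen and fibronectin, and so tie matrix assembly to cell adhesion and to the TGF-beta pathway. The 10 genes described here are Postn, Tnc, Spp1, Thbs1, Thbs2, Thbs4, Cthrc1, Sparc, Fn1 and Hapln1, found by symbol in 3 deposited tables that together list 6588 gene identifiers. They were chosen by their folds and adjusted p-values in these same tables, with Spp1 noted for rising at both steps. Their folds are therefore a description and not a test. Each symbol found stood on a single identifier. Fn1 and Hapln1 are structural matrix genes taken with the group.

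Left ventricle RNA was sequenced from 18 male rats, 6 in each of 3 groups. WKY (Wistar Kyoto) rats were the normotensive control strain, ZSF1 lean rats the hypertensive group, and ZSF1 obese rats, with hypertension and metabolic syndrome, the group that models HFpEF, heart failure in which the ejection fraction is preserved. As background, ZSF1 rats are hybrids of a Zucker diabetic fatty and a hypertensive heart failure strain, and the obese animals carry only defective copies of the leptin receptor gene where the lean animals keep a working one. The sources used here do not give the age or treatment of the rats. WKY is a separate strain, so strain and disease differ together in both comparisons with it, while obese against lean is made between ZSF1 rats. The files hold, for each pair of groups, only genes that differed by 2-fold or more in either direction, each with a fold and an adjusted p from 6 rats against 6. Neither the level in each rat nor a standard error nor the sequencing depth is known here, and a gene outside a table may have changed by less than 2-fold, missed the authors' limit or not been detected. In whole tissue, fewer cells of a type and less RNA per cell cannot be told apart.

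Of the 10 members, 8 were listed as higher in obese than in lean hearts and 0 as lower in the authors' deposited table. Of the named protein-coding symbols in RefSeq, 13.3% were listed as higher in that comparison, and 53.4% of the genes in the table itself were higher. In obese against WKY hearts the authors' deposited table had 9 members higher and 0 lower, where 13.5% of the named symbols and 54% of the genes in the table were higher. In lean against WKY hearts 1 member, Spp1, was listed, as higher, where 0.654% of the named symbols and 63.9% of the table were. The RefSeq symbols are not the set the authors tested, and since these tables chose the members, nothing is read from the counts. For lean against WKY hearts no adjusted p exceeds 0.0003474, so a limit of 0.001 could remove no gene there. At an adjusted p under 0.001 the counts were 8, 9 and 1, beside 11.7%, 11.7% and 0.654% of the named symbols. With a fold of at least 4 they were 8, 8 and 0, beside 3.42%, 3.74% and 0.0907%. The 8 against WKY hearts include Fn1, which stood on the limit at 4.00. The listed members spanned folds of 4.72 to 32.0 with a median of 15.1 in obese against lean, and 2.23 to 34.3 with a median of 24.3 in obese against WKY, in the authors' deposited tables. All genes listed as higher had median folds of 3.01 and 3.05.

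**Figure D1:**
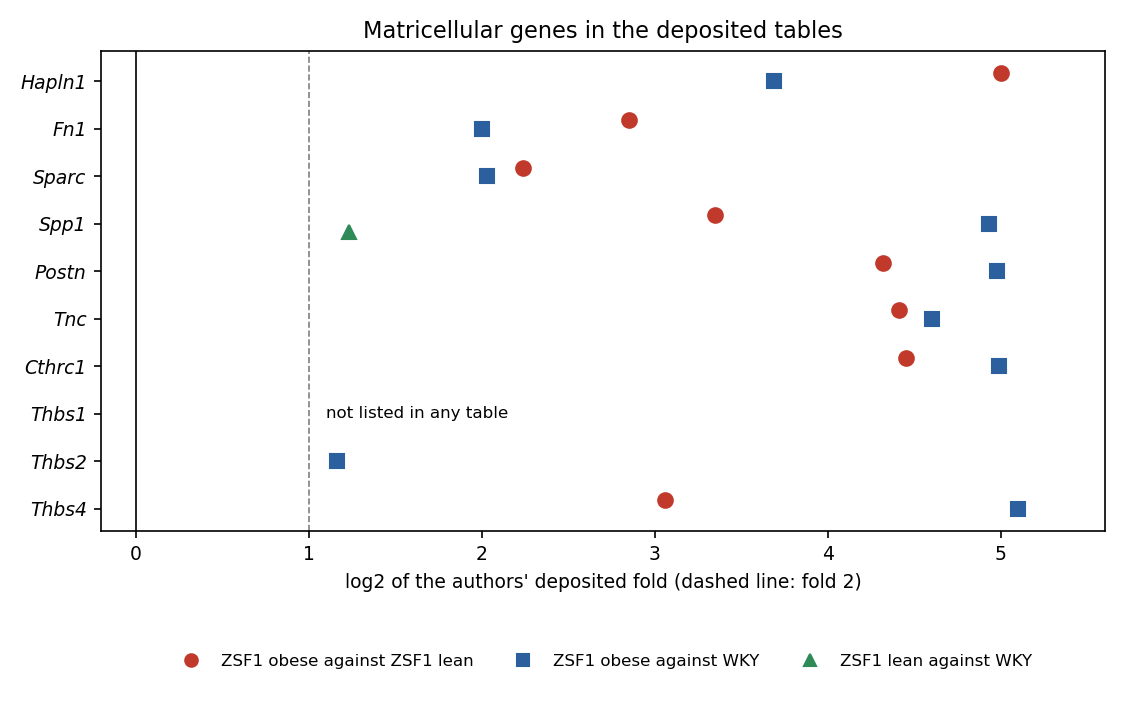
The log2 of the authors' deposited fold (x axis) of each of the 10 genes (y axis) in the 3 comparisons; the dashed line marks a fold of 2, and a comparison with no symbol did not list the gene. Hapln1, Fn1 and Sparc lie further right against lean than against WKY hearts, the other 5 genes listed in both obese comparisons lie further right against WKY, and Spp1 alone has a point for lean against WKY.

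Hapln1 encodes hyaluronan and proteoglycan link protein 1 (ENSRNOG00000032002), which fastens versican and related proteoglycans to hyaluronan. Obese hearts had 32.0 times the lean level of Hapln1 (adjusted p = 7.16e-19), first of the 3045 genes listed as higher in the authors' deposited table. Against WKY hearts its fold was 12.9 (adjusted p = 3.35e-10) in the authors' deposited table, where it ranked 53 of 3084. The 2 obese comparisons share the obese rats, so the ratio of their folds is an arithmetic estimate of lean over WKY, which for Hapln1 was 0.403. This estimate is loose. Over the 79 genes listed in all 3 comparisons it ran from 0.283 to 5.9 times the deposited lean over WKY fold. Hapln1 was nevertheless not listed in the lean against WKY table, either as lower or as higher. The genes nearest to Hapln1 by the distance of both log2 folds, among 4833 genes in both obese tables, were Agr2 (distance 0.52) and the small nucleolar RNA family SNORA73 (0.60), whose copies are nearly identical and whose value is uncertain. Predicted and clone names (LOC, RGD, AABR, NEWGENE, AC) could not be nearest genes here or below, though the 4833 were counted before their removal.

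Fn1, fibronectin (ENSRNOG00000014288), is the adhesive glycoprotein on which collagen, tenascin C and latent TGF-beta are laid down. The authors' deposited tables gave it a fold of 7.21 against lean hearts (adjusted p = 7.21e-40) and of 4.00 against WKY hearts (adjusted p = 2.77e-12). The WKY fold was 0.555 of the lean fold. By pattern its nearest genes were Evi2b and Tcf23, at log2 distances of 0.06 and 0.07.

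Sparc (ENSRNOG00000012840) encodes osteonectin, a collagen-binding protein that takes part in the handling of procollagen at the cell surface. Its folds of 4.72 and 4.08 against lean and WKY hearts were the smallest among members listed in both obese comparisons except the Fn1 fold against WKY. Its adjusted p-values of 1.11e-106 and 5.24e-75 were the smallest of all members in the authors' deposited tables, ranking 10 of 3045 and 15 of 3084 among genes listed as higher. Mas1 and Kcnab1 lay at a log2 distance of 0.01 from it.

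Postn, Tnc and Cthrc1 had similar folds in both obese comparisons. Postn, periostin (ENSRNOG00000012660), is a ligand of alpha-v integrins made by activated cardiac fibroblasts and aids collagen cross-linking. The authors' deposited tables gave it folds of 20.0 against lean hearts (adjusted p = 2.6e-10) and 31.6 against WKY hearts (adjusted p = 3.75e-14). Cthrc1 (ENSRNOG00000004578) encodes a secreted protein with a short collagen repeat that marks reparative fibroblasts after cardiac injury. Its deposited folds were 21.9 (adjusted p = 1.1e-24) and 31.8 (adjusted p = 4.83e-27) in the authors' deposited tables. Tnc, tenascin C (ENSRNOG00000058645), loosens cell adhesion to fibronectin and appears in remodelling tissue. Its folds were 21.3 (adjusted p = 3.91e-09) and 24.3 (adjusted p = 1.16e-09) in the authors' deposited tables. Among the 4833 genes in both obese tables Cthrc1 was the nearest to Postn, at a log2 distance of 0.13, followed by Prss35 at 0.36, which is not a member. Prss35 had folds of 15.7 and 33.6 in the authors' deposited tables. Tnc lay 0.39 from both Postn and Cthrc1, which were its nearest genes. The ratio of the WKY fold to the lean fold was 1.58 for Postn, 1.45 for Cthrc1 and 1.14 for Tnc, beside a median of 1.02 over the 2523 genes higher in both obese tables. None of the 3 genes was listed between lean and WKY hearts.

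Spp1 (ENSRNOG00000043451) encodes osteopontin, a phosphoprotein that binds alpha-v integrins and CD44 and is made by macrophages as well as by stromal cells. It was listed at both steps. The authors' deposited table for lean against WKY hearts gave it a fold of 2.35 (adjusted p = 7.74e-07), 78th of the 149 genes listed as higher there. From lean to obese its fold was 10.2 (adjusted p = 5.14e-07), and directly from WKY to obese 30.5 (adjusted p = 3.74e-13), in the authors' deposited tables. The product of both step folds was 24.0, so the direct fold was 1.27 times the product, beside a median of 1.17 over the 79 genes in all 3 tables. On the log2 scale 73.1% of that product lay in the step from lean to obese. Whether this step was larger than the first beyond error could not be tested without standard errors.

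By the distance of all 3 log2 folds, the 5 genes nearest to Spp1 among those 79, leaving out predicted and clone names, were Ubd (1.33), Srms (1.44), Fcgr2a (1.60), Cdh26 (1.69) and Ms4a12 (1.73). Ubd encodes a ubiquitin-like modifier and Fcgr2a an Fc receptor of myeloid cells. None lay close: Ubd had folds of 2.13, 4.99 and 17.1 for lean against WKY, obese against lean and obese against WKY in the authors' deposited tables. Fcgr2a stood on more than 1 identifier in the obese tables, and the one in all 3 had folds of 2.36, 4.86 and 13.4 in the authors' deposited tables. Each of these 5 had a smaller fold than Spp1 from lean to obese. Of the other SIBLING genes, the family of secreted phosphoproteins to which Spp1 belongs, Dmp1 was listed as higher in both obese comparisons, and Ibsp, Mepe and Dspp were not listed.

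**Figure D2:**
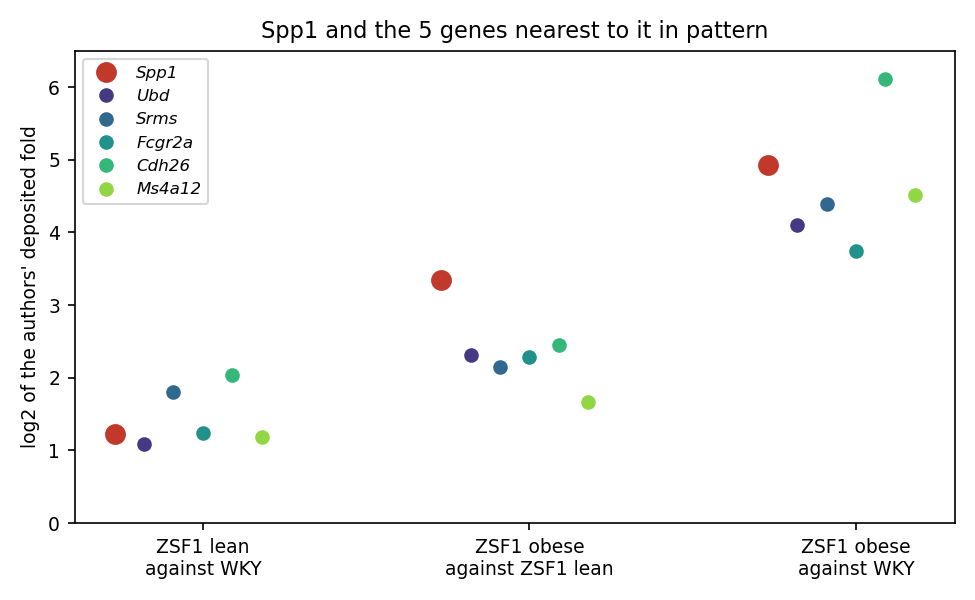
The log2 of the authors' deposited fold (y axis) of Spp1 and the 5 genes nearest to it in pattern, for the 3 comparisons (x axis); each point is 1 gene. Spp1 lies at 1.23, 3.35 and 4.93, above the other genes for obese against lean, while Cdh26 lies above it in both comparisons with WKY. Srms and, just barely at 1.24, Fcgr2a lie above it for lean against WKY.

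The thrombospondins are given by subgroup. Thbs1 and Thbs2 form trimers that bind CD36 and CD47 and limit vessel growth, and Thbs1 also activates latent TGF-beta, while Thbs3, Thbs4 and Comp form pentamers. Thbs1 was listed in none of the 3 tables. Thbs2 (ENSRNOG00000010529) was listed only against WKY hearts, with a fold of 2.23 (adjusted p = 0.0007265) in the authors' deposited table, close to the limit of 2, and it has no value against lean hearts. Whether Thbs2 differed between the comparisons was not tested. Thbs4 (ENSRNOG00000012471), which rises in overloaded hearts and acts in the secretory pathway as well as in the matrix, was 8.34 times as high as in lean hearts (adjusted p = 4.66e-07) in the authors' deposited table. Against WKY hearts its fold was 34.3 (adjusted p = 6.36e-17), the largest among the members in that table and 8th of 3084 in the authors' deposited table. Thbs3 had folds of 2.25 and 2.40, and Comp of 4.53 and 3.63, in the authors' deposited tables for lean and WKY references. All 3 pentameric genes were thus listed as higher in both obese comparisons, and 0 and 1 of the 2 trimeric genes. With so few genes no difference between the subgroups was tested.

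Beside Spp1, the members whose fold depended most on the reference group were Thbs4 and Hapln1, in opposite directions. The fold of Thbs4 against WKY was 4.11 times its fold against lean hearts, and that of Hapln1 0.403 times. In the 79 genes listed in all 3 comparisons, such ratios were 0.283 to 5.9 times the deposited lean over WKY fold. Whether lean and WKY hearts differed in Thbs4 or Hapln1 was not tested. Of 2478 genes higher in both obese tables and absent from the lean table, 83 (3.35%) had a ratio of at least 2 and 55 (2.22%) a ratio of at most 0.5. The lean against WKY table holds no adjusted p above 0.0003474, while the obese tables reach 0.04978 and 0.04989, so absence of these genes from it does not show that lean and WKY hearts had equal levels. The nearest genes to Thbs4 in pattern were Spp1, at a log2 distance of 0.34, and Pkp1, at 0.42.

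The sequences just upstream of these genes with opposite dependence on the reference are shown, since they had the largest folds of the members against lean and against WKY hearts. Each is the 250 bases before the transcript start in RefSeq's table for GRCr8, not the build of the files, read on the strand of the gene. Capitals mark matches to TGTGGT (RUNX factors), GGAATG (TEAD factors) or CAGACA (SMAD proteins) on either strand.
Hapln1, chr2:22366717-22366966, plus strand: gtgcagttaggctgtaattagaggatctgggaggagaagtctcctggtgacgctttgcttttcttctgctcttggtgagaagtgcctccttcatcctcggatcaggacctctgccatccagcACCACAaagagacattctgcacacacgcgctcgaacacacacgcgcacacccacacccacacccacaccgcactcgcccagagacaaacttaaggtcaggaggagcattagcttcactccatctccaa
Thbs4, chr2:25760346-25760595, minus strand: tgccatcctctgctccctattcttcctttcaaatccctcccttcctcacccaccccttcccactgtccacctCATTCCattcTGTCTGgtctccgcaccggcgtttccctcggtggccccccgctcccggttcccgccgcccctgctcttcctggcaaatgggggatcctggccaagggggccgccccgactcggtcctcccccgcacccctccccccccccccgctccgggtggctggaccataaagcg
The Hapln1 window held 1 RUNX match, 128 bases before the start, and the Thbs4 window a TEAD match at 178 and a SMAD match at 168, all on the opposite strand. The Thbs4 window was the richer in G and C, with 67.6% against 54%, and held 15 CpG pairs against 9. RefSeq's table matched 7 of the 10 members. Of these 7, 3 held the letters TATAAA in the window, namely Spp1, Postn and Tnc, where 12.9% of all 33469 windows did. The match began 204 bases before the start in Spp1, 44 in Postn and 208 in Tnc, so the positions were not alike. The TEAD letters were in 3 (Sparc, Thbs1 and Thbs4, 12.1% of all windows), the SMAD letters in 3 (Sparc, Tnc and Thbs4, 17.2%), the RUNX letters in 2 (Hapln1 and Sparc, 14.5%) and the AP-1 letters TGANTCA in 0 (6.34%). These matches describe letters in a window and not sites bound by a factor.

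Size of change and adjusted p ordered the members differently. In obese against lean hearts 5 of the 8 listed members had a fold of at least 10. So did 66 of the 3045 genes listed as higher, or 1.16% of all genes in the authors' deposited table. Against WKY hearts 6 of the 9 did, beside 81 of 3084 genes listed as higher, or 1.42% of all listed. Among the 23 genes at least 16-fold higher than in lean hearts, Cthrc1 had the 2nd smallest adjusted p, Hapln1 the 4th, Postn the 18th and Tnc the 22nd. Among the 95 genes between 8-fold and 16-fold, Thbs4 was 71st and Spp1 72nd. Fn1 was 64th and Sparc 3rd of 689 genes between 4-fold and 8-fold. Against lean hearts, Tnc, Postn, Spp1 and Thbs4 thus had larger adjusted p-values than most genes of the same fold range, and Cthrc1, Hapln1, Fn1 and Sparc smaller ones. Against WKY hearts the order was partly different. Among the 32 genes at least 16-fold higher there, Cthrc1 was 10th by adjusted p, Thbs4 18th, Postn 20th, Spp1 24th and Tnc 31st. Hapln1 was 62nd of 115 genes between 8-fold and 16-fold, and Sparc 10th and Fn1 337th of 717 between 4-fold and 8-fold. The tables do not say how much of this comes from low counts and how much from spread between rats.

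**Figure D3:**
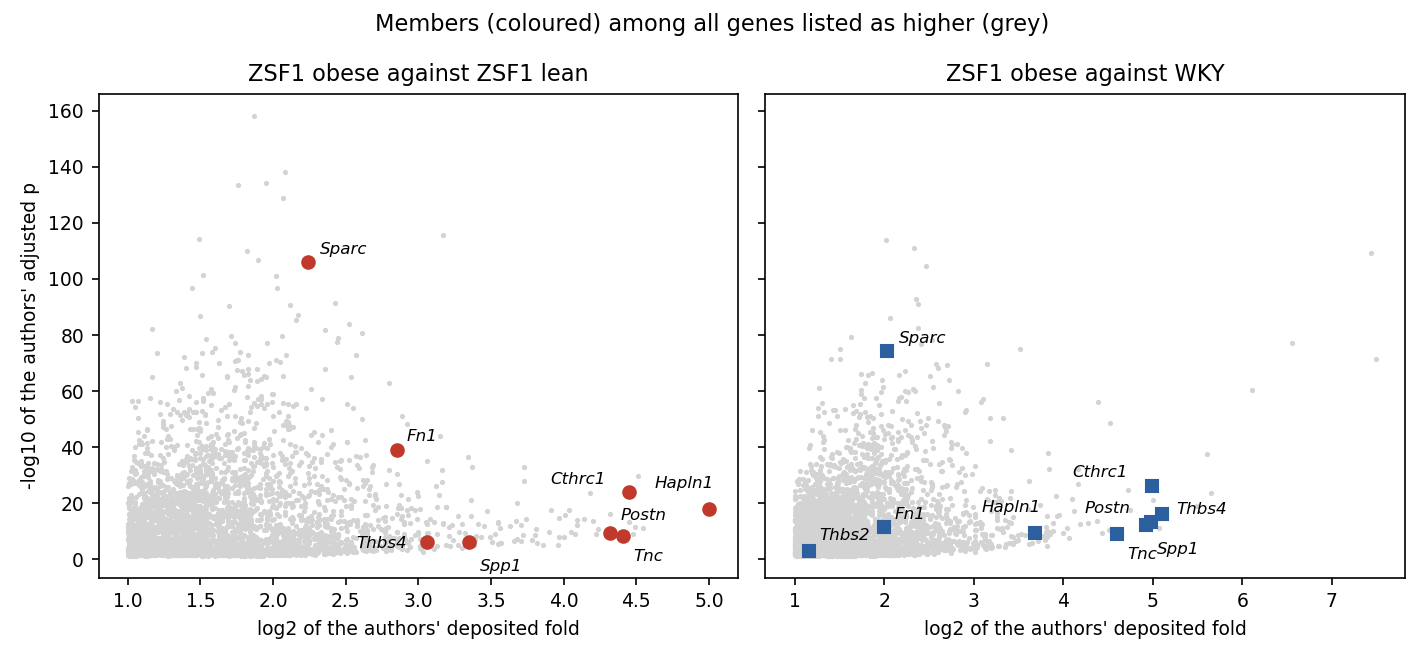
The log2 of the authors' deposited fold (x axis) against minus log10 of the authors' adjusted p (y axis) of each gene listed as higher, for obese against lean (left) and obese against WKY (right), with members coloured and labelled. Sparc stands high at a modest fold, with adjusted p-values of 1.11e-106 and 5.24e-75, and in the left panel Tnc, Postn, Spp1 and Thbs4 lie to the right and low, with adjusted p-values of 2.6e-10 to 5.14e-07.

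Other matricellular genes were set beside the members in a list of 28 genes. Of these, 13 were higher and 1 lower in each obese comparison in the authors' deposited tables. The shares of the named symbols were 13.3% and 13.5% higher, and 11.8% and 11.7% lower, against lean and WKY hearts. Median folds over the listed genes of this list were 2.96 against lean and 2.94 against WKY hearts, beside 2.10 and 2.11 over all listed genes. Those overall medians pool higher and lower genes, so they reflect the mix of directions. All genes listed as higher had median folds of 3.01 and 3.05, so the sizes of change in this list did not stand out. Igfbp7, a secreted binding protein of vessels, had a fold of 2.68 (adjusted p = 1.64e-54), Mgp, the matrix Gla protein that restrains calcification, one of 4.00, and Lgals3, the macrophage lectin galectin-3, one of 6.02 against lean hearts in the authors' deposited table. Spock2, a proteoglycan of the SPARC family, fell to 0.153 of the lean level and 0.392 of the WKY level, but was 2.41 times as high in lean as in WKY hearts, in the authors' deposited tables. Within the SPARC family Sparc, Smoc1 and Sparcl1 were higher in both obese comparisons and Spock2 lower. Of the 6 CCN genes, 2 were listed in each obese comparison: Ccn5, with folds of 9.13 and 12.2 in the authors' deposited tables, in both, Ccn4 only against lean and Ccn3 only against WKY hearts. Tgfbi, the paralog of Postn, had folds of 2.04 and 2.08 in the authors' deposited tables. The tenascin genes Tnr and Tnn were not listed. Smoc1, Tgfbi, Ccn3, Ccn4 and Ccn5 were named after their values had been seen.

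Receptors of the members were listed in both directions, and whether their counts differ from the shares of all named symbols was not tested. Of 20 receptor genes, 4 were higher and 4 lower against lean hearts in the authors' deposited table, where 13.3% of the named symbols were higher and 11.8% lower. Against WKY hearts 5 were higher and 3 lower in the authors' deposited table, beside 13.5% and 11.7%. The remaining 12 were not listed in each comparison. Itgb8, an integrin beta subunit that pairs with alpha-v and activates TGF-beta, stood at 0.080 of the lean level (adjusted p = 7.96e-39), Itga9, a receptor subunit for tenascin C and osteopontin, at 0.319, and Itgav, the alpha-v subunit shared by receptors of periostin, osteopontin and fibronectin, at 0.308 in the authors' deposited table. Against WKY hearts the same genes stood at 0.092, 0.243 and 0.289 in the authors' deposited table. Cd44, which binds hyaluronan and osteopontin, had folds of 3.20 and 3.36 in the authors' deposited tables. Sdc1, a heparan sulphate proteoglycan, was listed at both steps like Spp1, with folds of 2.22 for lean against WKY and 2.77 for obese against lean in the authors' deposited tables. Its direct fold for obese against WKY was 6.96 in the authors' deposited table.

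Growth factors and transcription regulators known to act on these genes were listed in both directions. Of 25 such genes, 7 were higher and 4 lower against lean hearts, and 11 higher and 4 lower against WKY hearts, in the authors' deposited tables. The shares of the named symbols were 13.3% and 13.5% higher, and 11.8% and 11.7% lower. Nothing is therefore read from the presence of both directions. Tgfb1, the main inducer of matrix genes in fibroblasts, had folds of 4.20 (adjusted p = 1.57e-129) and 3.94 in the authors' deposited tables. The transcription factor gene Tead1, its coactivator Yap1 and Srf, the serum response factor gene, stood at 0.054, 0.240 and 0.403 of the lean level in the authors' deposited table. None of the 25 was listed between lean and WKY hearts.

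Partners of Hapln1 in the hyaluronan matrix were mostly higher where they were listed. Of 16 genes, 6 were higher and 1 lower against lean hearts and 7 higher and 0 lower against WKY hearts in the authors' deposited tables. Beside these counts, 13.3% and 13.5% of the named symbols were listed as higher, and 11.8% and 11.7% as lower. Tnfaip6, which transfers proteins onto hyaluronan, had a fold of 5.03, the proteoglycan gene Vcan one of 3.97 and the hyaluronan synthase gene Has2 one of 3.25, while the hyaluronidase gene Hyal1 fell to 0.412 in the authors' deposited table for obese against lean. Hapln3 was the other listed link protein, with folds of 2.38 and 3.39 in the authors' deposited tables, and Hapln2 and Hapln4 were not listed.

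The list of fibrillar matrix and assembly genes also holds other collagens, such as Col6a3, Col8a1 and Col12a1. Against lean hearts 15 of its 21 genes were higher and 0 lower in the authors' deposited table, with a median fold of 3.39. Against WKY hearts 17 were higher and 0 lower in the authors' deposited table, with a median of 3.56. Among the named symbols, 13.3% and 13.5% were listed as higher against lean and WKY hearts, and 11.8% and 11.7% as lower. Bmp1 and Pcolce, which together trim procollagen, had folds of 2.87 and 3.39, the cross-linking oxidase gene Lox one of 5.17 and the small proteoglycan gene Fmod one of 3.86 against lean hearts in the authors' deposited table. Postn, Tnc, Cthrc1 and Hapln1 exceeded the highest fold of this list, 5.17 against lean and 6.68 against WKY hearts, in both comparisons, as did Spp1 and Thbs4. Of 18 proteases and inhibitors that act on matrix proteins, 8 were higher against lean and 6 against WKY hearts, with 0 lower in either, in the authors' deposited tables. The same shares of the named symbols stand beside these counts. The inhibitor gene Timp1 led this list with folds of 8.34 and 9.58, and Plat, Fap and Ctsk had folds of 2.99, 3.32 and 2.41 against lean hearts, in the authors' deposited tables.

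**Figure D4:**
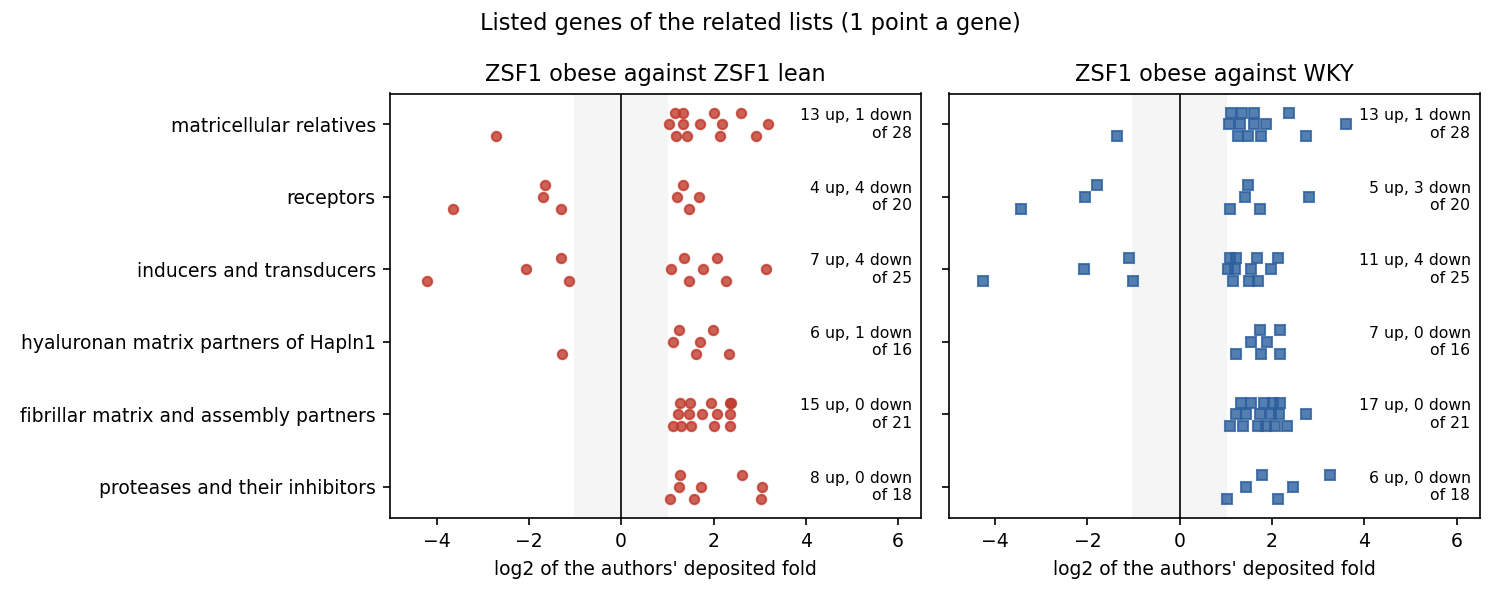
The log2 of the authors' deposited fold (x axis) of each listed gene of 6 lists of related genes (y axis), for obese against lean (left) and obese against WKY (right); the shaded band holds no values because genes changed by less than 2-fold are not listed. The fibrillar and protease lists have points to the right only, and receptors and inducers have points on both sides. Against lean hearts 4 receptors of 20 were higher and 4 lower, beside 13.3% and 11.8% of the named symbols.

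Neighbours on the chromosome were read from RefSeq's gene order. Of the 20 protein-coding genes next to the 10 members, 4 were higher and 2 lower in each obese comparison in the authors' deposited tables. Beside them, 13.3% and 13.5% of named symbols were listed as higher and 11.8% and 11.7% as lower. Hapln1 lies between Edil3, an integrin ligand gene, and Vcan, and both were among the 4 higher neighbours. Edil3 had folds of 9.13 and 3.46 and Vcan of 3.97 and 3.71 against lean and WKY hearts in the authors' deposited tables. Fzd6 beside Cthrc1 (2.53 and 2.50) and Atox1 beside Sparc (2.64 and 2.03) were the other listed neighbours that were higher in the authors' deposited tables, and Atic beside Fn1 and Mtx3 beside Thbs4 were lower. No neighbour of Spp1, Postn or Tnc was listed.

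Markers of several cell types moved in the same comparisons, and their part in the results above was not tested. Over all named symbols, 13.3% and 13.5% were listed as higher against lean and WKY hearts, and 11.8% and 11.7% as lower. In the authors' deposited tables for lean and WKY references, all 7 activated fibroblast markers were higher, with median folds of 4.53 and 4.76, and 8 and then 9 of 9 macrophage markers, with medians of 5.02 and 5.46. General fibroblast markers were higher for 3 and 4 of 8, endothelial markers for 5 of 6 in each, lymphocyte markers for 4 of 6 in each and smooth muscle markers for 3 and 2 of 4. Of 8 cardiomyocyte markers 3 were lower in each, Myh6, Actn2 and Ryr2, with median folds of 0.334 and 0.299. Of 5 mesothelial markers Wt1 was higher in both and Lrrn4 lower against WKY hearts, in the authors' deposited tables. Comp, Fap, Lgals3, Col1a1, Lum and Dcn are also in the lists of related genes. Neutrophil markers depended on the reference: 4 of 5 were higher against lean hearts with a median fold of 20.1, 1 was higher against WKY hearts with a fold of 2.10, and 3 were lower in lean than in WKY hearts at 0.33 to 0.35 of the WKY level, in the authors' deposited tables. Of the marker genes, these 3 neutrophil genes were the ones listed between lean and WKY hearts. How much of each marker was present in a group is not part of the tables, so the labelled tissue could not be checked by level.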

How the data were processed

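Left ventricle RNA of 18 rats was selected for polyadenylated molecules with a stranded kit, per the labels' protocols. The submitters' processing notes name DESeq2 1.22.2, HTSeq 0.11.2, HISAT2 2.1.0 and the build Rnor_6.0. Their settings, strand use and the limits of each table were not stated there. Per the file headers, each of 3 deposited tables holds a linear fold (the ratio of the first named group over the other) and an FDR (an adjusted p-value). Both were used as the authors deposited them. In the obese tables each fold equals a power of 2 whose exponent has 2 decimals, within 0.0011, as tested on the values. For lean against WKY 57.1% of the 233 folds did. The folds of that comparison were thus written differently, which limits products and ratios of folds across comparisons. No counts or values per rat were used, so no test was run, and library batches are unknown.

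Members, lists, motifs and the rule for named genes were chosen with earlier results of these data known. The rule names all members, up to 4 genes per list by adjusted p against lean hearts, list genes in the lean table, and the nearest genes in pattern (5 for Spp1, 2 for others). Genes outside the rule, such as family relatives, neighbours and markers, were named after their values were seen. Older symbols were matched through RefSeq (GRCr8). Python 3.11.15, pandas 2.3.3 and numpy 2.4.6 were used. The code of the search for nearest genes was checked by planting a gene beside a target, in real log2 folds and a shuffled copy. Any sort by distance finds such a gene, so this checks the code and not the results. Alternatives were stricter adjusted p and fold limits and the implied folds.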

Additional observations from a re-analysis of the deposited data

How the results depend on the processing

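The members were chosen by these same values, so stricter limits are no independent check of them. No adjusted p for lean against WKY exceeds 0.0003474, so counts there could not change with the adjusted p limit. The counts of members listed as higher, 8 against lean, 9 against WKY and 1 for lean against WKY, were the same at an adjusted p under 0.01 and under 0.001. With a fold of at least 4 they were 8, 8 (without Thbs2) and 0 (without Spp1). Fn1 stood on this limit against WKY hearts, with a rounded fold of 4.00. The related lists together hold 128 genes. Of these, 53, 59 and 2 were higher in the 3 comparisons, beside 13.3%, 13.5% and 0.654% of the named symbols. At an adjusted p under 0.001 the list counts were 47, 52 and 2, beside 11.7%, 11.7% and 0.654%. With a fold of at least 4, where fewer genes can pass by construction, they were 19, 16 and 0, beside 3.42%, 3.74% and 0.0907%. The fold of Spp1 implied by the other 2 tables was 13.0 for obese against lean (10.2 as deposited), 24.0 for obese against WKY (30.5) and 2.99 for lean against WKY (2.35), and the cause of these gaps was not tested. All 8 members listed in both obese tables were higher with either reference.

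Leaving out rats in turn and matching by Ensembl identifier were not run, since values per rat and identifiers in the reference were not at hand. No paired analysis was possible because the tables hold no values per rat and the groups share no replicate numbers. Depth is unknown.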
